A study of Mus musculus with 22 samples.

Results

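Collagens and their partner proteins form the extracellular matrix of the colon wall, and 37 mouse genes that encode them, modify them or join them during wound repair were followed through DSS colitis. They were chosen by name and grouped by role as fibrillar collagens, other interstitial collagens, basement membrane proteins, proteoglycans, processing and crosslinking factors, elastic fiber proteins with fibulins, and wound matrix proteins. Of the 37 genes, 34 had a probe set annotated to a single gene symbol and are described here, out of 18194 genes measured in the same way. Loxl2, whose probe sets carry more than 1 gene symbol, and Fbn1 and Spp1 were not analysed here. The probe set whose signal had the largest interquartile range over the arrays represents each gene, and all 34 passed the filter that kept the more variable 50% of genes (9097 genes) for testing.

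RNA of colonic mucosa was hybridized to 22 Affymetrix mouse expression arrays, 1 per sample. VC+ mice (PPAR γ fl/fl; Villin Cre+) lack the nuclear receptor PPAR γ in cells in which the villin promoter drives Cre, that is in the intestinal epithelium, and VC- mice (PPAR γ fl/fl; Villin Cre-) carry the same floxed alleles without Cre and express the receptor there. There were 3 arrays of VC+ mice and 3 of VC- mice at day 0, without DSS; 5 of VC+ mice and 3 of VC- mice at day 2; and 4 of each at day 7 of 2.5% dextran sodium sulfate (DSS) in the drinking water, a chemical that injures the epithelium and brings on colitis. The labels number the replicates but do not say that each came from a separate mouse, and they give neither the age nor, per array, the genetic background of the mice, so the p-values below measure the spread between these arrays. All values are log2 signals after GC-RMA, a background correction and normalization for this kind of array, and all differences are on the log2 scale.

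Fibrillar collagens give the wall its tensile strength, and the enzymes of the lysyl oxidase family tie their fibrils together. Type IV collagen and laminins build the basement membrane, the thin sheet under the epithelium and around vessels, muscle and nerves. Most of these proteins are made by fibroblasts, smooth muscle and vascular cells rather than by the epithelium, and in an injured colon fibroblasts lay down a provisional matrix in which fibronectin, tenascin C and versican are prominent.

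The members moved as a block on single arrays, and the values of each array are given first. VC- day 7 replicate 2 was the highest of all 22 arrays for 31 of the 34 members, while VC+ day 2 replicate 4 was the highest for 2 and VC- day 7 replicate 4 for 1. Within the VC- day 7 group replicate 1 was the lowest array for 32 members. Within the VC+ day 7 group replicate 4 was the highest for 25 and replicate 1 the lowest for 27. The mean of the 34 members, each taken relative to its own mean over the 22 arrays, was -0.78, -0.57, 0.60 and 1.10 on the VC+ day 7 arrays, against -0.44, 2.90, 0.78 and 1.49 on the VC- day 7 arrays. At day 2 it was -0.38, -0.02, 0.29, 0.77 and 0.72 in VC+ mice, against -0.40, -0.84 and -0.91 in VC- mice. At day 0 it was -1.0, -1.08 and -0.63 in VC+ mice, against -0.70, -0.48 and -0.42 in VC- mice. The day 7 groups overlapped, whereas at day 2 all 5 VC+ arrays lay above all 3 VC- arrays.

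**Figure D1:**
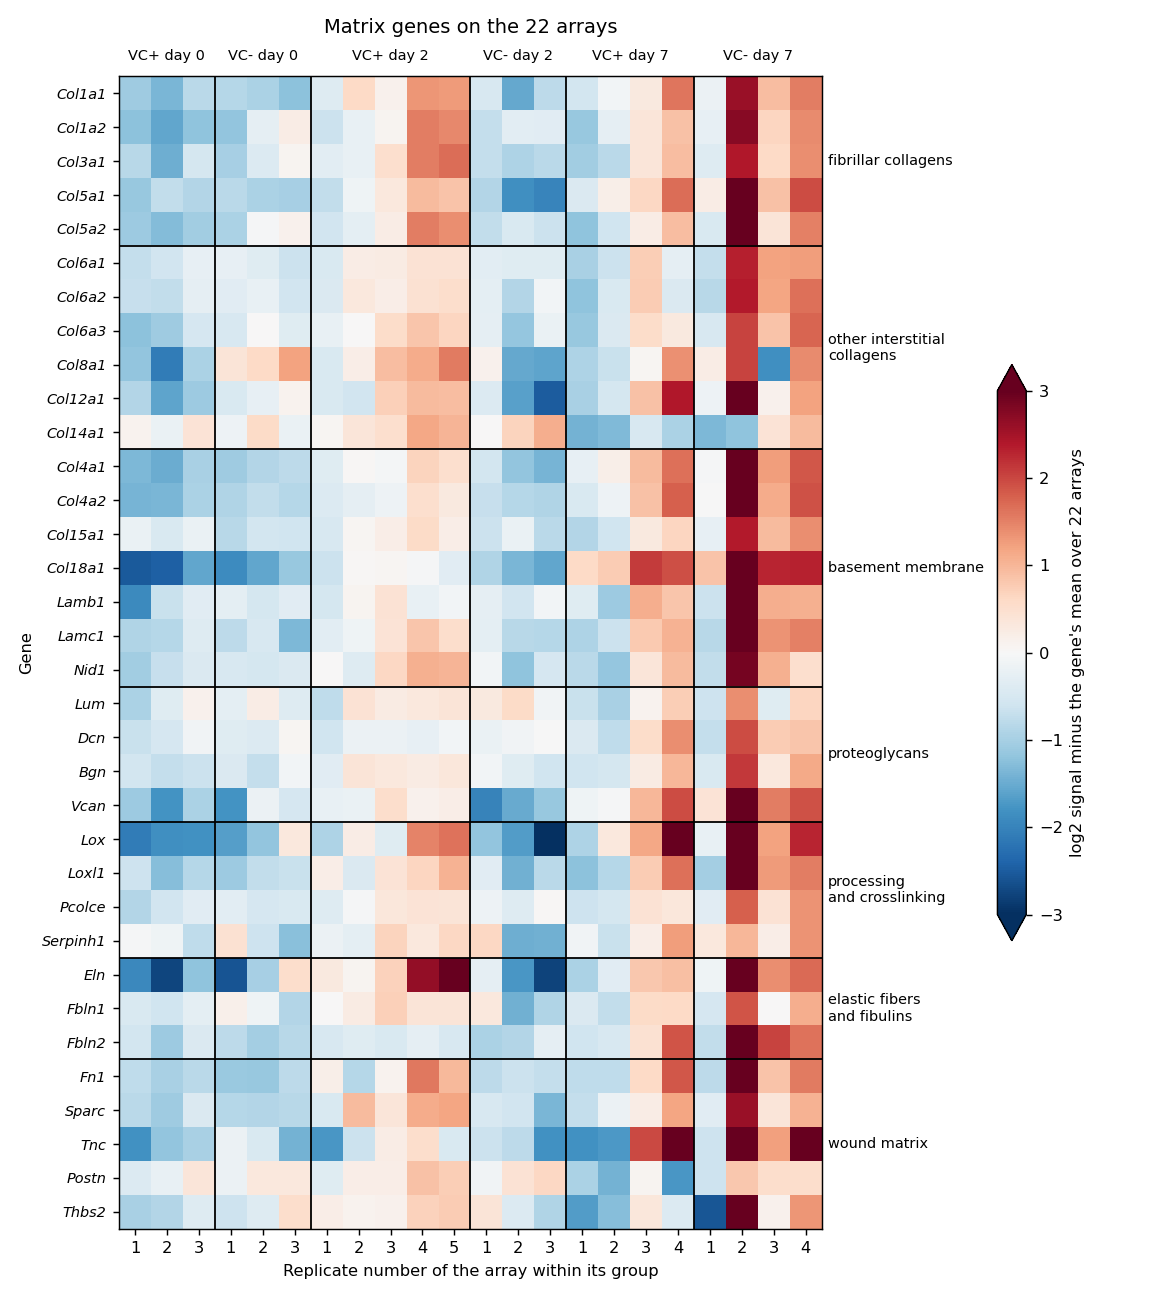
Log2 signal of the 34 matrix genes (rows, ordered by role) on the 22 arrays (columns, by group and replicate number), with the mean of each gene over the 22 arrays subtracted; red is above that mean, blue below, and the colors end at 3 in either direction. VC- day 7 replicate 2 is the darkest red column, the highest array for 31 genes, and VC- day 7 replicate 1, beside it, is the lowest of its group for 32.

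Several facts about the arrays bear on these values. Array medians lay between 3.41 and 3.55, and the lowest correlation of any pair of arrays was 0.9035. The smooth muscle myosin Myh11 (10.91 to 13.51) and the enteric actin Actg2 (11.50 to 14.49) were high on all arrays, although the labels call the tissue mucosa. Prss2, a pancreatic trypsinogen, gave 11.20 on VC+ day 7 replicate 4, against 14.74 on VC- day 7 replicate 2 and 13.77 on VC- day 0 replicate 3, and 4.20 or less on the other arrays. On VC- day 7 replicate 2 the epithelial villin gene Vil1 was at 8.46, with 11.88 to 12.85 on the other 21 arrays. Xist, the transcript of the inactive X chromosome, was at 11.45 to 11.90 on 6 arrays of days 0 and 2. It was at 2.08 or less on the others, which include every day 7 array. Hoxb13, a homeobox gene of the distal colon, was at 7.29, 9.13 and 9.67 on the VC- day 0 arrays, against 3.81, 2.86, 3.03 and 9.62 on the VC- day 7 arrays. In VC+ mice it was at 12.42, 3.09 and 2.88 at day 0, against 3.10, 3.31, 3.07 and 6.88 at day 7. The single Pparg probe set was at 8.50 to 8.83 in VC+ mice and 9.58 to 9.63 in VC- mice at day 0, at 6.87 to 9.54 in VC+ mice and 9.87 to 10.96 in VC- mice at day 2, and at 6.26 to 10.35 in VC+ mice and 7.39 to 9.82 in VC- mice at day 7. Whether that probe set lies in the deleted part of the gene is not stated, so it is no check of the labels.

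Markers of fibroblasts, endothelium and macrophages moved with the members from array to array at day 7, and those of some other cell types did not. The mean of 12 fibroblast markers, on the same relative scale, was -0.79, -0.76, 0.34 and 0.70 on the VC+ day 7 arrays, against -0.84, 1.96, 0.56 and 0.82 on the VC- day 7 arrays. The mean of 10 endothelial markers was -0.94, -0.99, 0.38 and 1.11 in VC+ mice and -0.75, 2.91, 0.76 and 1.41 in VC- mice at day 7. The mean of 12 macrophage and monocyte markers was 0.32, 0.29, 1.01 and 1.65 in VC+ mice and -0.25, 2.36, 1.15 and 1.35 in VC- mice at day 7. Within each genotype these lists put the day 7 arrays in nearly the same order as the matrix genes. The mean of 6 enteric glia and neuron markers kept that order in VC- mice (-0.41, 1.27, 0.52 and 0.54). In VC+ mice it was -0.5, -0.73, 0.33 and -0.07. The mean of 10 smooth muscle markers did not follow that order. It was -1.43, -1.23, -0.34 and -1.41 on the VC+ day 7 arrays, against -0.85, -1.16, 0.22 and 0.26 on the VC- day 7 arrays. The mean of 12 colonocyte markers was -2.48 on VC- day 7 replicate 2 and -0.64 to 0.57 on every other array. For 7 goblet cell markers the mean was -3.84 on VC- day 7 replicate 2 and -1.23 to 0.99 on every other array. In RNA of a whole tissue fewer cells of a type and less RNA per cell cannot be told apart. The smooth muscle mean was tried as a covariate, with the results given below, and the part of the other marker lists was not tested.

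**Figure D2:**
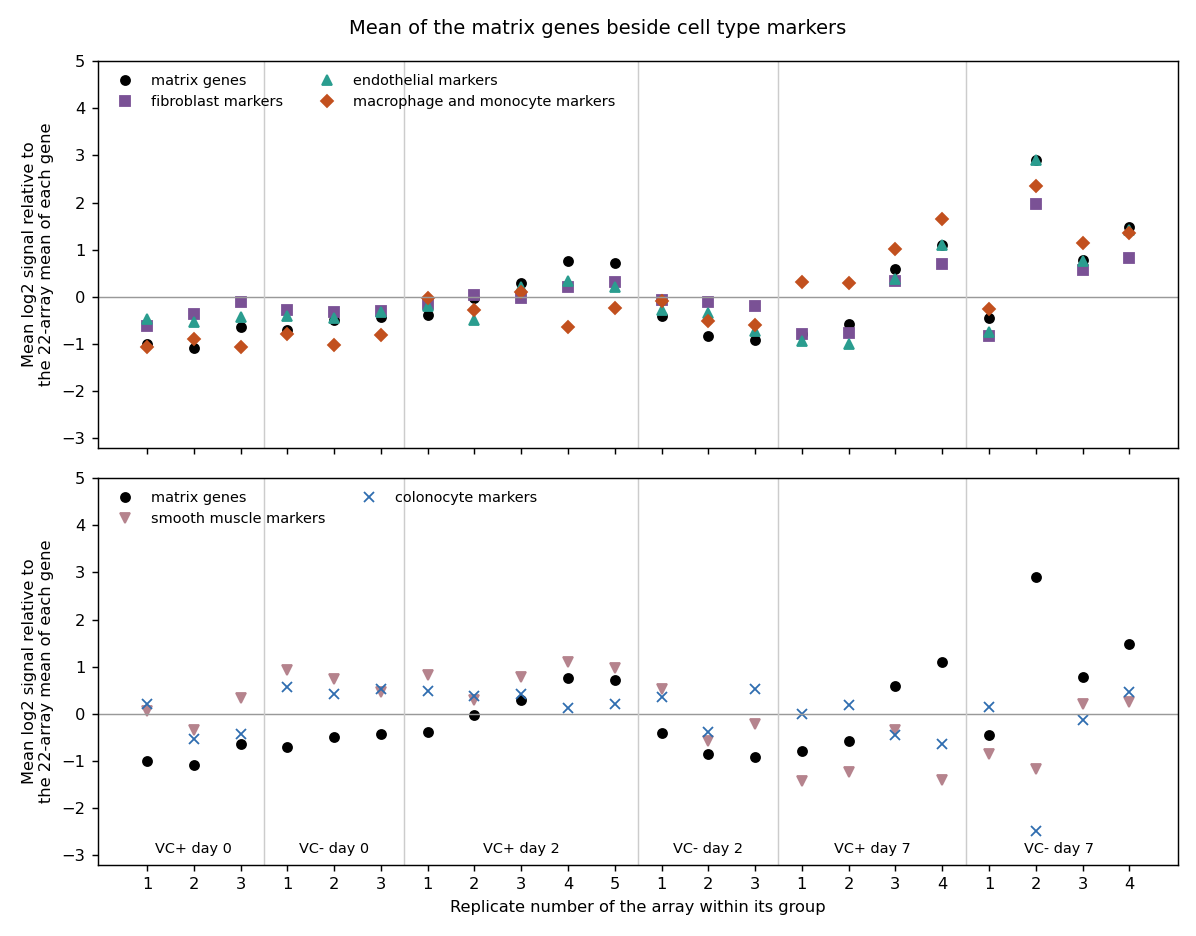
Mean log2 signal, relative to the mean of each gene over the 22 arrays, of the 34 matrix genes (black circles) and of marker lists of other cell types (colored symbols) on each array, by group and replicate number. In the upper panel VC- day 7 replicate 2 has the highest matrix mean (2.90) together with the highest endothelial (2.91), fibroblast (1.96) and macrophage (2.36) means; in the lower panel it has the lowest colonocyte mean (-2.48).

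To examine the effect of 7 days of DSS on the matrix genes, day 7 was compared with day 0 within each genotype, with a linear model fitted to all 22 arrays in limma and p-values adjusted by Benjamini-Hochberg over the 9097 genes tested. Each gene has 1 estimate of spread shared by the 6 groups, so an SE does not follow the spread of the groups compared. For Col18a1 at day 7 the SD was 0.77 on the VC+ arrays and 1.72 on the VC- arrays. In VC+ mice 1 of the 34 members passed the threshold of 0.05 (2.94%, against 1.32% of all genes tested that were called higher), and in VC- mice 11 did, all of them higher (32.4%, against 5.53%). The member called in VC+ mice was Col18a1. The 11 in VC- mice were Col18a1, Col4a1, Col4a2, Col15a1 and Lamc1 of the basement membrane, Col1a1 and Col5a1 of the fibrils, Vcan, Pcolce, Fbln2 and Sparc. The median difference of the 34 members was 0.94 in VC+ mice, with 31 higher and 3 lower at day 7, and 1.54 in VC- mice, with 32 higher and 2 lower, while the median over all 18194 genes was 0.01 in VC+ mice and -0.04 in VC- mice. In both genotypes 10 of 34 members had all day 7 arrays above all day 0 arrays (29.4%, against 9.61% of genes tested in VC+ mice and 8.62% in VC- mice). Since the members moved together on the same arrays, these counts do not stand for 34 separate observations.

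The count in VC- mice rested on few arrays. Fitted to the VC- day 7 and day 0 arrays alone, the same test called none of the 34 (26 had an unadjusted p under 0.05 in the fit to all arrays), and with VC- day 7 replicate 2 left out it called 5, the median difference being 1.04 with 30 members higher. Without VC- day 7 replicate 1 it called 27, without replicate 3 or replicate 4 it called 7, and without VC- day 0 replicate 1, 2 or 3 it called 5, 3 or 1. The call of Col18a1 held in both genotypes whichever of the 22 arrays was left out, with adjusted p of at most 0.0367 in VC+ mice and 0.0084 in VC- mice. With the mean of 10 smooth muscle markers as a covariate, however, Col18a1 was no longer called in VC+ mice (3.40, adjusted p = 0.116), while it was in VC- mice (4.01, adjusted p = 0.0187). With array quality weights the counts were 6 in VC+ mice, 4 higher and 2 lower, and 24 in VC- mice, all higher.

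**Figure D3:**
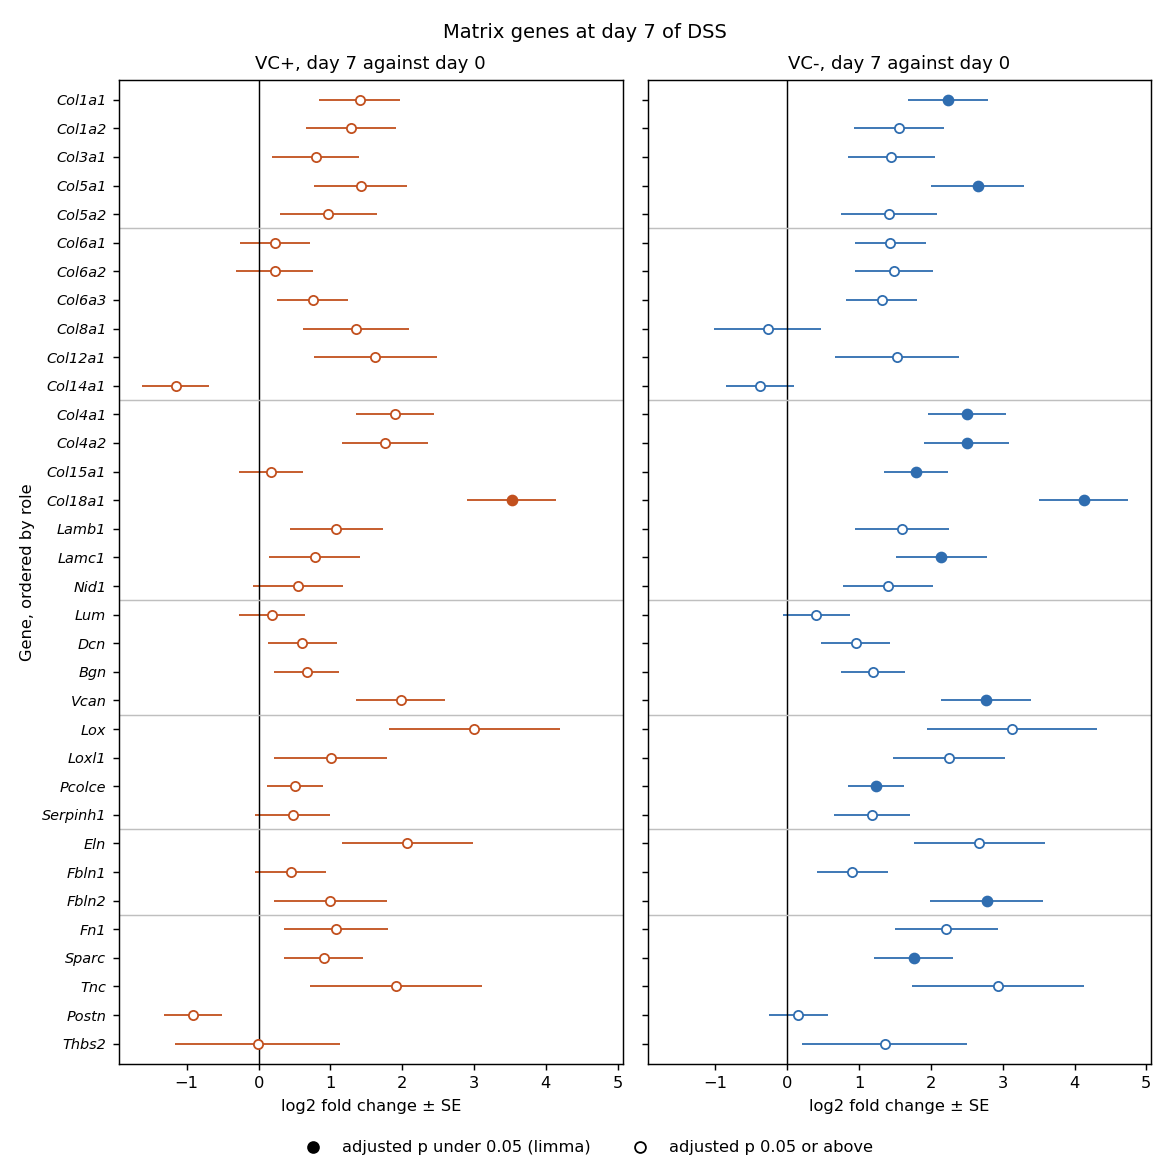
Log2 fold change ± SE at day 7 against day 0 for the 34 matrix genes, ordered by role, in VC+ mice (left, 4 and 3 arrays) and VC- mice (right, 4 and 3 arrays); filled points have an adjusted p under 0.05. 1 point is filled in VC+ mice (Col18a1, 3.52) and 11 in VC- mice, 5 of them in the basement membrane block.

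The 5 fibrillar collagen genes encode chains of the collagens that form the banded fibrils. At day 7 none of them passed the test in VC+ mice, where their differences lay between 0.80 and 1.42, and Col1a1 and Col5a1 rose in VC- mice, where the range was 1.42 to 2.65. Col1a1 (probe set 1423669_at, chromosome 11) encodes the α1 chain of type I collagen, the most abundant collagen of the gut wall. Its signal in VC+ mice was 8.67, 8.36 and 8.93 at day 0, 9.36, 10.33, 9.88, 11.06 and 11.01 at day 2, and 9.18, 9.67, 10.04 and 11.34 at day 7. In VC- mice it was at 8.89, 8.78 and 8.51 at day 0, 9.27, 8.21 and 8.96 at day 2, and 9.56, 12.34, 10.67 and 11.28 at day 7. All day 7 arrays of either genotype were above all day 0 arrays of the same genotype, and the VC+ arrays were already above them at day 2. The difference between day 7 and day 0 was 1.41 in VC+ mice (SE 0.56, adjusted p = 0.254) and 2.24 in VC- mice (SE 0.56, adjusted p = 0.0233). The difference in VC- mice lost its call without VC- day 0 replicate 2 or 3 or VC- day 7 replicate 2 (adjusted p up to 0.103).

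Col5a1 (1416741_at, chromosome 2), the α1 chain of type V collagen, which starts fibrils and limits their width, had lower signals with larger steps. In VC+ mice it was at 4.70, 5.09 and 4.96 at day 0, at 5.09, 5.70, 6.14, 6.79 and 6.68 at day 2, and at 5.40, 6.00, 6.44 and 7.50 at day 7. Its VC- values were 5.01, 4.89 and 4.84 at day 0, 4.94, 3.98 and 3.85 at day 2, and 6.06, 9.71, 6.70 and 7.78 at day 7. The day 0 arrays of both genotypes spanned less than the gap from them to any VC- day 7 array. The difference at day 7 against day 0 was 1.42 in VC+ mice (SE 0.64, adjusted p = 0.333) and 2.65 in VC- mice (SE 0.64, adjusted p = 0.0198), where the call was lost without VC- day 0 replicate 2 or 3 (adjusted p up to 0.0888). Col1a2, Col3a1 and Col5a2, partner chains of the same fibrils, had differences of 0.80 to 1.29 in VC+ mice and 1.42 to 1.55 in VC- mice, and none of the 3 was called in either genotype.

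The other interstitial collagens sit on fibrils or run between them, and none of the 6 was called at day 7 against day 0 in either genotype. Col12a1 (1434411_at, chromosome 9) encodes a collagen that decorates the surface of fibrils. Its signal in VC+ mice was 7.95, 7.23 and 7.74 at day 0, 8.36, 8.25, 9.54, 9.78 and 9.75 at day 2, and 7.85, 8.29, 9.71 and 11.22 at day 7. The VC- arrays had 8.36, 8.57 and 8.93 at day 0, 8.42, 7.19 and 6.33 at day 2, and 8.68, 12.93, 8.95 and 10.03 at day 7. The day 7 and day 0 arrays overlapped in both genotypes, and in VC- mice replicate 2 stood far above the other 3. The difference was 1.63 in VC+ mice (SE 0.86, adjusted p = 0.432) and 1.53 in VC- mice (SE 0.86, adjusted p = 0.22). Col6a2 (1426947_x_at, chromosome 10), a chain of the beaded filaments of type VI collagen, was at 8.38, 8.33 and 8.79 at day 0, 8.62, 9.37, 9.27, 9.52 and 9.60 at day 2, and 7.85, 8.60, 9.83 and 8.62 at day 7 in VC+ mice. VC- mice had 8.72, 8.83 and 8.48 at day 0, 8.78, 8.19 and 8.97 at day 2, and 8.24, 11.45, 10.24 and 10.72 at day 7. In VC- mice 3 of the 4 day 7 arrays stood well above day 0 and replicate 1 below it, with a difference of 1.49 (SE 0.54, adjusted p = 0.0747), against 0.23 in VC+ mice (SE 0.54, adjusted p = 0.918). The partner chains Col6a1 and Col6a3 had differences of 0.23 and 0.75 in VC+ mice and 1.44 and 1.31 in VC- mice.

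Col14a1 (1427168_a_at, chromosome 15) encodes another collagen of the fibril surface, and it ran against the block. In VC+ mice its signal was 7.82, 7.51 and 8.12 at day 0, 7.77, 8.07, 8.21, 8.87 and 8.73 at day 2, and 6.29, 6.38, 7.23 and 6.76 at day 7. In VC- mice the signal was 7.57, 8.29 and 7.51 at day 0, 7.72, 8.38 and 8.81 at day 2, and 6.36, 6.50, 8.13 and 8.67 at day 7. All 4 VC+ day 7 arrays were below every day 2 and day 0 array of that genotype, and Col14a1 fell by 1.66 between day 2 and day 7 in VC+ mice (SE 0.41, adjusted p = 0.0219). In VC- mice, where 2 of the 4 day 7 arrays were low and 2 were not, the difference was -0.88 (SE 0.47, adjusted p = 0.211).

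Basement membrane genes were the role with the most calls, 5 of the 11 in VC- mice and the only 1 in VC+ mice. Of the 7 members, Col18a1 rose in VC+ mice and Col18a1, Col4a1, Col4a2, Col15a1 and Lamc1 rose in VC- mice at day 7, and the median difference of the 7 was 1.08 in VC+ mice and 2.15 in VC- mice. Col18a1 (1426955_at, chromosome 10) encodes type XVIII collagen, a basement membrane collagen that carries heparan sulfate chains and whose end fragment is endostatin, an inhibitor of vessel growth. Its signal in VC+ mice was 5.16, 5.25 and 6.13 at day 0, 7.05, 7.72, 7.75, 7.65 and 7.35 at day 2, and 8.29, 8.45, 9.79 and 9.61 at day 7. For VC- mice the values were 5.81, 6.14 and 6.56 at day 0, 6.79, 6.32 and 6.13 at day 2, and 8.55, 12.66, 9.98 and 9.99 at day 7. In VC+ mice the 3 days did not overlap one another, and in VC- mice day 7 stood above both earlier days, which overlapped. The difference at day 7 against day 0 was 3.52 in VC+ mice (SE 0.62, adjusted p = 0.00572) and 4.12 in VC- mice (SE 0.62, adjusted p = 0.00102), and the response in VC+ mice minus that in VC- mice was -0.60 (SE 0.88, adjusted p = 0.82). Without VC- day 7 replicate 2, far above its group, the difference in VC- mice was 3.33. The other Col18a1 probe set (1418237_s_at) gave 2.77 in VC+ mice and 3.86 in VC- mice.

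Mouse Col18a1 has more than 1 annotated start, which give long and short forms of the protein, and the 250 bases before the outermost start are shown because Col18a1 was the member called in both genotypes. They lie on the minus strand of chromosome 10 in RefSeq's GRCm38.p6 and are printed 5′ to 3′ up to the base before the start, with capitals for the GC box (GGGCGG or its complement CCGCCC) and the CCAAT box (CCAAT or its complement ATTGG). They hold 3 GC boxes, all close to the start, and 1 CCAAT box, whereas the 250 bases before the inner start (chr10:77113706-77113955) hold neither of these, nor TATAAA nor the AP-1 motif TGANTCA. Which start was used cannot be read from the arrays.
Col18a1, chr10:77166531-77166780, minus strand: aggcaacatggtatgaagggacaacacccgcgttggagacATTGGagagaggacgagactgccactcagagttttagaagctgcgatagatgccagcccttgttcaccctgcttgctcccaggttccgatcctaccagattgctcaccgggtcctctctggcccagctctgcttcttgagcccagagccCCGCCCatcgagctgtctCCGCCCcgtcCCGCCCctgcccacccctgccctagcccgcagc

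Col4a1 (1452035_at) and Col4a2 (1424051_at), both on chromosome 8, encode the chains that twine into the common type IV collagen, the scaffold of every basement membrane. The genes lie head to head. In RefSeq's GRCm38.p6 the annotated start of Col4a1 is at 11312826 on the minus strand and that of Col4a2 at 11312805 on the plus strand, so that the 2 starts lie within 22 bases of each other.

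Col4a1 in VC+ mice was at 10.79, 10.64 and 11.17 at day 0, at 11.78, 12.16, 12.08, 12.81 and 12.63 at day 2, and at 11.88, 12.31, 13.09 and 13.78 at day 7. In VC- mice it was at 11.07, 11.26 and 11.35 at day 0, at 11.59, 10.95 and 10.74 at day 2, and at 12.10, 15.40, 13.40 and 13.99 at day 7. All day 7 arrays were above all day 0 arrays in both genotypes, by a mean of 1.90 in VC+ mice (SE 0.54, adjusted p = 0.0982) and 2.50 in VC- mice (SE 0.54, adjusted p = 0.012). The call in VC- mice was lost only without VC- day 0 replicate 3 (adjusted p = 0.0521) among the 22 arrays. Col4a2 in VC+ mice was at 8.69, 8.70 and 9.13 at day 0, at 9.66, 9.81, 9.94, 10.58 and 10.38 at day 2, and at 9.63, 9.93, 10.97 and 11.88 at day 7. Its VC- values were 9.17, 9.34 and 9.22 at day 0, 9.39, 9.23 and 9.17 at day 2, and 10.06, 13.72, 11.20 and 11.98 at day 7. Within each genotype it put the day 7 arrays in the same order as Col4a1, with differences of 1.76 in VC+ mice (SE 0.60, adjusted p = 0.17) and 2.50 in VC- mice (SE 0.60, adjusted p = 0.0185, up to 0.0852 without VC- day 0 replicate 2 or 3).

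Col15a1, a relative of Col18a1 in the zone beneath basement membranes, was the only member whose response differed between the genotypes at day 7 by an unadjusted p under 0.05. Its difference at day 7 was 0.17 in VC+ mice (SE 0.45, adjusted p = 0.928) and 1.79 in VC- mice (SE 0.45, adjusted p = 0.0233), but the difference between these responses, -1.62 (SE 0.63), had an adjusted p of 0.58. The call in VC- mice was lost without any of the 3 VC- day 0 arrays or VC- day 7 replicate 2 (adjusted p up to 0.0875). Lamc1, the γ1 chain shared by most laminins, had 0.78 in VC+ mice (SE 0.63, adjusted p = 0.66) and rose by 2.15 in VC- mice (SE 0.63, adjusted p = 0.0397), a call that 8 of the 22 omissions ended, VC- day 7 replicates 2, 3 and 4 and all VC- day 0 arrays among them. The laminin chain Lamb1 and Nid1, the nidogen that links laminin to type IV collagen, were not called, with 1.08 and 0.55 in VC+ mice and 1.60 and 1.40 in VC- mice.

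Among the 4 proteoglycans only Vcan was called, in VC- mice. Vcan (1427256_at, chromosome 13) encodes versican, a large proteoglycan that binds hyaluronan and swells provisional matrix. Its signal in VC+ mice was 5.84, 5.14 and 6.00 at day 0, 6.72, 6.74, 7.46, 7.06 and 7.13 at day 2, and 6.82, 6.90, 7.93 and 8.89 at day 7. The VC- arrays had 5.15, 6.76 and 6.44 at day 0, 4.94, 5.42 and 5.81 at day 2, and 7.34, 10.87, 8.47 and 8.86 at day 7. Day 7 did not overlap day 0 in either genotype, with differences of 1.98 in VC+ mice (SE 0.62, adjusted p = 0.132) and 2.77 in VC- mice (SE 0.62, adjusted p = 0.014, up to 0.0546 without VC- day 0 replicate 1 or 3). Bgn (1416405_at, chromosome X) encodes biglycan, a small leucine-rich proteoglycan bound to fibrils. It was at 9.56, 9.40 and 9.46 at day 0, 9.78, 10.51, 10.44, 10.35 and 10.46 at day 2, and 9.52, 9.58, 10.36 and 11.10 at day 7 in VC+ mice. VC- mice had 9.69, 9.39 and 10.02 at day 0, 10.04, 9.74 and 9.52 at day 2, and 9.66, 12.24, 10.43 and 11.24 at day 7. Day 7 overlapped day 0 in both genotypes, and the differences were 0.67 in VC+ mice (SE 0.45, adjusted p = 0.564) and 1.19 in VC- mice (SE 0.45, adjusted p = 0.0842). Lum and Dcn, which encode lumican and decorin and also regulate fibril width, had the smallest differences of the role, 0.19 and 0.61 in VC+ mice and 0.41 and 0.95 in VC- mice.

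Lox (1416121_at, chromosome 18) encodes lysyl oxidase, the enzyme that starts the crosslinks of collagen and elastin, and it covered the widest range of signals. In VC+ mice it was at 5.08, 5.34 and 5.36 at day 0, at 6.26, 7.40, 6.82, 8.67 and 8.81 at day 2, and at 6.25, 7.50, 8.35 and 10.95 at day 7. In VC- mice the signal was 5.53, 5.99 and 7.49 at day 0, 6.00, 5.50 and 2.87 at day 2, and 6.95, 13.04, 8.40 and 9.46 at day 7. In VC+ mice both later days stood wholly above day 0, while in VC- mice day 7 replicate 1 lay below the highest day 0 array. The arrays of a group lay far apart, and neither 3.00 in VC+ mice (SE 1.19, adjusted p = 0.251) nor 3.13 in VC- mice (SE 1.19, adjusted p = 0.0865) passed against day 0. Loxl1 (1451978_at, chromosome 9), a lysyl oxidase relative that acts mainly on elastin, was at 7.46, 6.82 and 7.23 at day 0, at 8.29, 7.66, 8.49, 8.74 and 9.13 at day 2, and at 6.86, 7.24, 8.85 and 9.75 at day 7 in VC+ mice. For VC- mice the values were 7.01, 7.34 and 7.41 at day 0, 7.74, 6.65 and 7.27 at day 2, and 7.08, 11.93, 9.37 and 9.63 at day 7. Its lowest day 7 arrays lay within the day 0 range in both genotypes, and its differences were 1.00 in VC+ mice (SE 0.79, adjusted p = 0.643) and 2.25 in VC- mice (SE 0.79, adjusted p = 0.0671). Pcolce, which speeds the trimming of procollagen, was called in VC- mice at the edge of the threshold (1.23, SE 0.39, adjusted p = 0.049), and 19 of the 22 omissions of an array ended the call, against 0.51 in VC+ mice (adjusted p = 0.635). Serpinh1, the collagen chaperone of the endoplasmic reticulum, was not called, with 0.48 in VC+ mice and 1.18 in VC- mice.

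Eln (1420855_at, chromosome 5) encodes elastin, the stretchable core of elastic fibers. In VC+ mice its signal was 4.70, 3.88 and 5.42 at day 0, 6.93, 6.71, 7.32, 9.27 and 9.61 at day 2, and 5.69, 6.29, 7.44 and 7.52 at day 7. In VC- mice it was at 4.03, 5.64 and 7.15 at day 0, 6.37, 4.89 and 3.86 at day 2, and 6.51, 10.25, 8.03 and 8.33 at day 7. In VC+ mice all day 2 and day 7 arrays stood above day 0, and in VC- mice the day 0 arrays themselves lay between 4.03 and 7.15. The differences at day 7 against day 0 were 2.07 in VC+ mice (SE 0.91, adjusted p = 0.314) and 2.67 in VC- mice (SE 0.91, adjusted p = 0.0623). Fbln2 (1423407_a_at, chromosome 6) encodes fibulin-2, a glycoprotein of elastic fibers and vessel walls. It was at 4.65, 4.10 and 4.76 at day 0, 4.70, 4.82, 4.73, 4.92 and 4.71 at day 2, and 4.59, 4.70, 5.64 and 7.08 at day 7 in VC+ mice. Its VC- values were 4.41, 4.18 and 4.36 at day 0, 4.23, 4.32 and 4.93 at day 2, and 4.45, 9.90, 7.21 and 6.81 at day 7. It was flat at days 0 and 2 in both genotypes and then high on some day 7 arrays and not on others. The differences were 1.00 in VC+ mice (SE 0.79, adjusted p = 0.645) and 2.78 in VC- mice (SE 0.79, adjusted p = 0.0364), where leaving out any of VC- day 7 replicates 2, 3 and 4 or of the VC- day 0 arrays ended the call (adjusted p up to 0.118). Fbln1, a fibulin of basement membranes and elastic fibers, was not called either, with 0.45 in VC+ mice and 0.91 in VC- mice.

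The 5 wound matrix genes ranged widely, and only Sparc was called. Tnc (1456344_at, chromosome 4) encodes tenascin C, which appears in wounds and loosens cell adhesion. In VC+ mice it was at 4.12, 4.76 and 4.98 at day 0, at 4.19, 5.30, 6.17, 6.48 and 5.48 at day 2, and at 4.14, 4.23, 7.92 and 9.82 at day 7. The VC- arrays had 5.78, 5.50 and 4.54 at day 0, 5.30, 5.17 and 4.13 at day 2, and 5.32, 10.18, 7.18 and 10.13 at day 7. Both day 7 groups held arrays at the day 0 level beside arrays far above it, and the differences of 1.91 in VC+ mice (SE 1.20, adjusted p = 0.53) and 2.93 in VC- mice (SE 1.20, adjusted p = 0.107) did not pass. Fn1 (1437218_at, chromosome 1) encodes fibronectin, to which cells anchor in provisional matrix. It was at 4.47, 4.25 and 4.42 at day 0, 5.41, 4.37, 5.34, 6.80 and 6.19 at day 2, and 4.46, 4.47, 5.83 and 7.08 at day 7 in VC+ mice. VC- mice had 4.11, 4.10 and 4.43 at day 0, 4.44, 4.59 and 4.51 at day 2, and 4.44, 8.39, 6.09 and 6.79 at day 7. The same arrays were high as for Tnc at day 7, and the differences were 1.08 in VC+ mice (SE 0.72, adjusted p = 0.562) and 2.22 in VC- mice (SE 0.72, adjusted p = 0.0535). Sparc, a collagen-binding protein of remodelling tissue, had 0.90 in VC+ mice (adjusted p = 0.512) and rose by 1.76 in VC- mice (SE 0.55, adjusted p = 0.0471), a call that 18 of the 22 omissions ended. Thbs2, a thrombospondin that restrains vessel growth, was not called, with -0.01 in VC+ mice and 1.35 in VC- mice. The VC- difference rested on replicate 2 of day 7, at 10.70, and was -0.21 without that array.

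**Figure D4:**
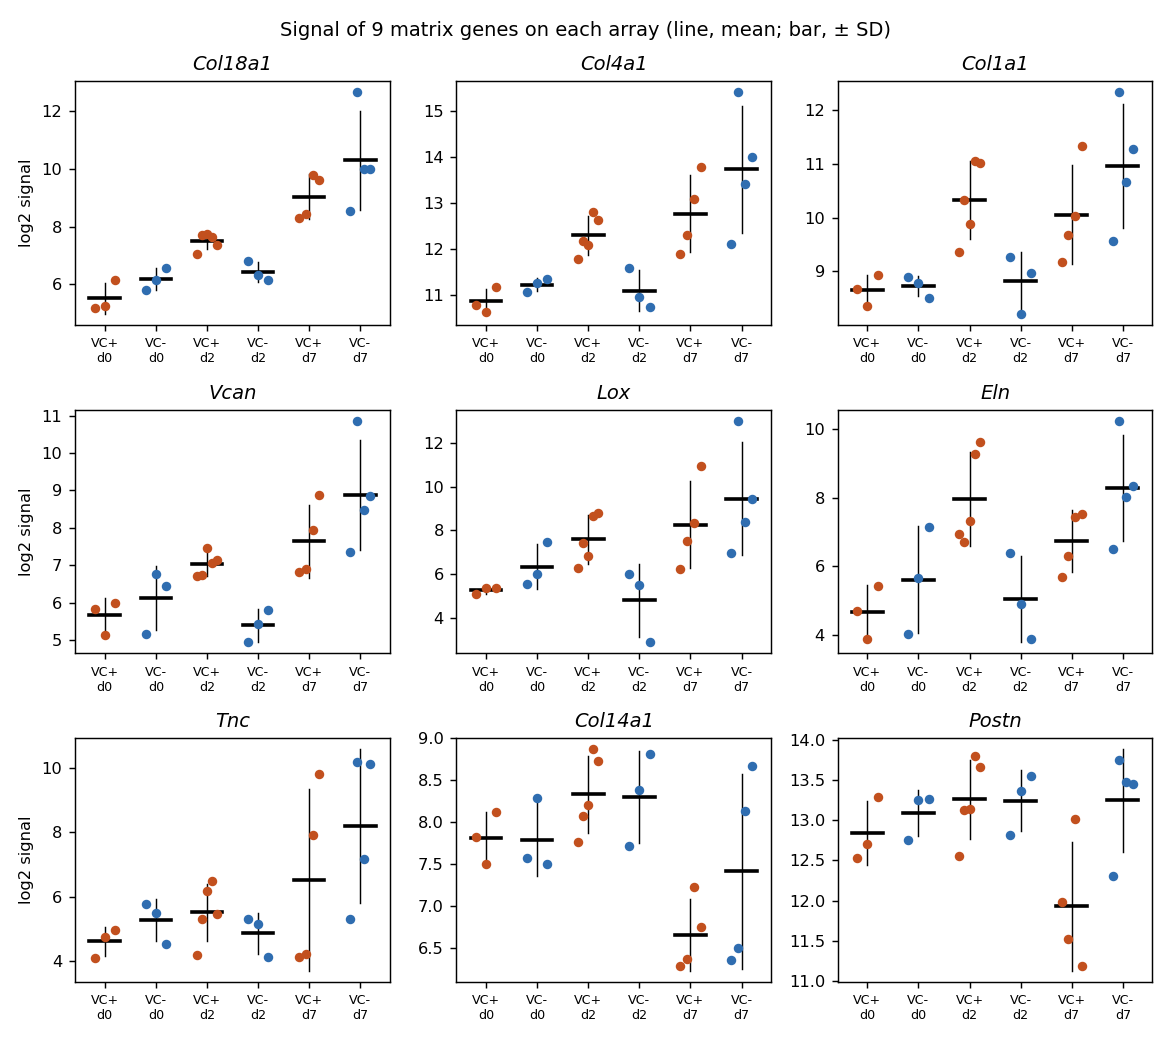
Log2 signal of 9 matrix genes on each array (points) by genotype and day (d0, d2 and d7), VC+ in orange and VC- in blue; lines are group means and bars ± SD of the arrays. Col18a1 steps up in VC+ mice over 3 days that do not overlap, and Tnc is at its day 0 level on some day 7 arrays and far above on others. In VC+ mice Col14a1 is below its earlier values on every day 7 array, and Postn on all but replicate 3.

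To separate the change after day 2 from the early one, day 7 was compared with day 2. In VC+ mice no member was called higher (1 had an unadjusted p under 0.05) and 2 were called lower (5.88%, against 2.83% of genes tested that were called lower), Col14a1, as given above, and Postn. In VC- mice 9 were called, all higher (26.5%, against 3.45%). With array quality weights the counts were 14 in VC+ mice, 1 higher and 13 lower, and 17 in VC- mice, all higher. Postn (1423606_at, chromosome 3) encodes periostin, a matricellular protein of collagen-rich tissue that is induced in many wounds. In VC+ mice it was at 12.53, 12.71 and 13.29 at day 0, at 12.56, 13.13, 13.14, 13.80 and 13.66 at day 2, and at 11.99, 11.52, 13.02 and 11.19 at day 7. In VC- mice the signal was 12.76, 13.25 and 13.26 at day 0, 12.82, 13.36 and 13.55 at day 2, and 12.31, 13.75, 13.47 and 13.45 at day 7. In VC+ mice 3 of the 4 day 7 arrays were below all earlier arrays and replicate 3 was among them, and Postn fell by 1.33 (SE 0.36, adjusted p = 0.0303). In VC- mice the difference was 0.00 (SE 0.41, adjusted p = 0.997). Smooth muscle markers also moved between these groups. The mean of 10 of them, including desmin and Myh11, was between -1.43 and -0.34 on the VC+ day 7 arrays, against 0.29 to 1.11 on the VC+ day 2 arrays, without overlap, and with that mean as a covariate neither Col14a1 nor Postn was called. Neither was called with Hoxb13 as a covariate either. Hoxb13 was at 3.07 to 6.88 on the VC+ day 7 arrays, against 3.07 to 12.42 on the VC+ day 2 arrays. The 2 calls were also lost without VC+ day 7 replicate 1, 2 or 4, or VC+ day 2 replicate 4 or 5, and 1 of them, Postn, without VC+ day 2 replicate 3.

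The 9 members called in VC- mice at day 7 against day 2 were Col1a1, Col5a1, Col4a1, Col4a2, Col15a1, Col18a1 and Vcan, which were also called against day 0, together with Lox and Eln. Lox rose by 4.67 (SE 1.19, adjusted p = 0.0332) and Eln by 3.24 (SE 0.91, adjusted p = 0.0446), with VC- day 2 replicate 3 the lowest of all arrays for either gene. The Lox call was lost without VC- day 2 replicate 2 or 3 or VC- day 7 replicate 2 or 4 (adjusted p up to 0.171), and the Eln call in 15 of the 22 omissions of an array (up to 0.193). Col18a1 (3.88, SE 0.62, adjusted p = 0.00249) and Vcan (3.50, SE 0.62, adjusted p = 0.00512) kept their calls whichever array was left out. With only the VC- day 7 and day 2 arrays in the fit, 0 of the 34 were called (28 had an unadjusted p under 0.05 in the fit to all arrays), and the count was 30 without VC- day 7 replicate 1, 4 without replicate 2 or 4, and 2 without VC- day 2 replicate 2 or 3. Since day 7 enters both sets of VC- calls with the same 4 arrays, the lists are not independent of each other.

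To find what moved early in DSS, day 2 was compared with day 0. In VC+ mice all 34 members were higher at day 2 than at day 0, with a median of 1.18 and a range of 0.17 (Dcn) to 3.30 (Eln), against a median of -0.00225 over all genes, of which 42.0% were higher. None of the 34 was called (0.055% of genes tested were), the smallest adjusted p being 0.334 for Eln, although a fit with array quality weights called 24. With an unadjusted p under 0.05 there were 12 members, all higher (35.3%, against 6.57% of genes tested in either direction), and they included 4 of the 5 fibrillar collagens. For 19 members all 5 day 2 arrays lay above all 3 day 0 arrays (55.9%, against 4.17%). In VC- mice the same comparison gave a median of -0.03 with 16 members higher and 18 lower, none called (0.011% of genes tested) and 1 with an unadjusted p under 0.05 (4.58% of genes tested), the collagen Col8a1, which was lower. Among the VC+ day 2 arrays replicates 4 and 5 had the highest member means. Those 2 arrays also carried signal of Xist, the transcript of the inactive X chromosome (11.87 and 11.90), as did VC+ day 0 replicate 3 but not the other VC+ arrays of these days. With Xist as a covariate the median in VC+ mice was 1.16. With a term for the replicate number in the fit it was 0.876, with 33 members higher and 1 lower. Cell type markers moved between these groups too. The smooth muscle mean was 0.29 to 1.11 on the VC+ day 2 arrays, against -0.35 to 0.34 on the VC+ day 0 arrays, and with it as a covariate the median of the members was 1.05. The macrophage mean lay between -0.64 and 0.10 at day 2, against -1.07 to -0.89 at day 0, and the fibroblast mean between -0.16 and 0.31 at day 2, against -0.61 to -0.11 at day 0. The part of the macrophage and fibroblast markers was not tested. Hoxb13, a homeobox gene of the distal colon, was at 12.42, 3.07, 9.45, 10.44 and 11.19 on the VC+ day 2 arrays, against 12.42, 3.09 and 2.88 at day 0.

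The fibrillar collagens made the clearest early group in VC+ mice. Their differences at day 2 lay between 1.17 (Col5a1) and 1.77 (Col1a2), against -0.65 to 0.09 in VC- mice. Eln had the largest, 3.30 (SE 0.87), followed by Lox with 2.34 (SE 1.14, adjusted p = 0.756), and Col8a1, a short-chain collagen of vessel walls, with 2.07 (SE 0.71, adjusted p = 0.568). The least movement was in Dcn (0.17), Fbln2 (0.27), Col15a1 (0.40) and Postn (0.42).

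VC+ mice were then compared with VC- mice at the same day of DSS. At day 2 the members were higher in VC+ mice than in VC- mice by a median of 0.96, with 32 higher and 2 lower, and at day 7 they were lower in VC+ mice by a median of -1.17, with 0 higher and 34 lower. The medians over all genes were -0.02 and 0.03, with 34.8% of genes positive at day 2 and 66.3% at day 7. No member passed the test at either day, although with array quality weights 25 did at day 7, all lower in VC+ mice, and 0 at day 2. At day 2, where 0.044% of genes were called, the smallest adjusted p was 0.242 (Eln, 2.93, SE 0.87), 11 members had an unadjusted p under 0.05, all higher (32.4%, against 12.3% of genes in either direction), and for 10 all VC+ arrays lay above all VC- arrays (29.4%, against 3.72%). Those 10 were Col1a1, Col3a1, Col5a1, Col4a1, Col4a2, Col18a1, Vcan, Lox, Eln and Sparc. Hoxb13 was above 9 on 4 of the 5 VC+ day 2 arrays, given above, against 3.08, 2.95 and 2.88 in the VC- day 2 group, and with it as a covariate the median of the members was 0.701. The smooth muscle mean was 0.83, 0.29, 0.79, 1.11 and 0.97 in the VC+ group, against 0.52, -0.58 and -0.21 in the VC- group, and with that mean as a covariate the median was 0.837. At day 7, where 0.0% of genes were called, the smallest was 0.303 (Postn, -1.32, SE 0.38), 9 members had an unadjusted p under 0.05, all lower (26.5%, against 14.2%), and for 0 members the groups were apart (0.451% of genes tested were wholly lower in VC+ mice).

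The day 7 difference between genotypes depended on VC- day 7 replicate 2. Without that array the median was -0.50, with 2 members higher in VC+ mice (Col8a1 and Col12a1, 0.02 and 0.05) and 32 lower, and without VC- day 7 replicate 1 it was -1.67 and 15 members were called, while leaving out VC+ day 7 replicate 3 let 1 be called. The members farthest below VC- mice without replicate 2 were Postn (-1.15), Col14a1 (-1.06), Tnc (-1.02) and Col6a2 (-1.01).

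**Figure D5:**
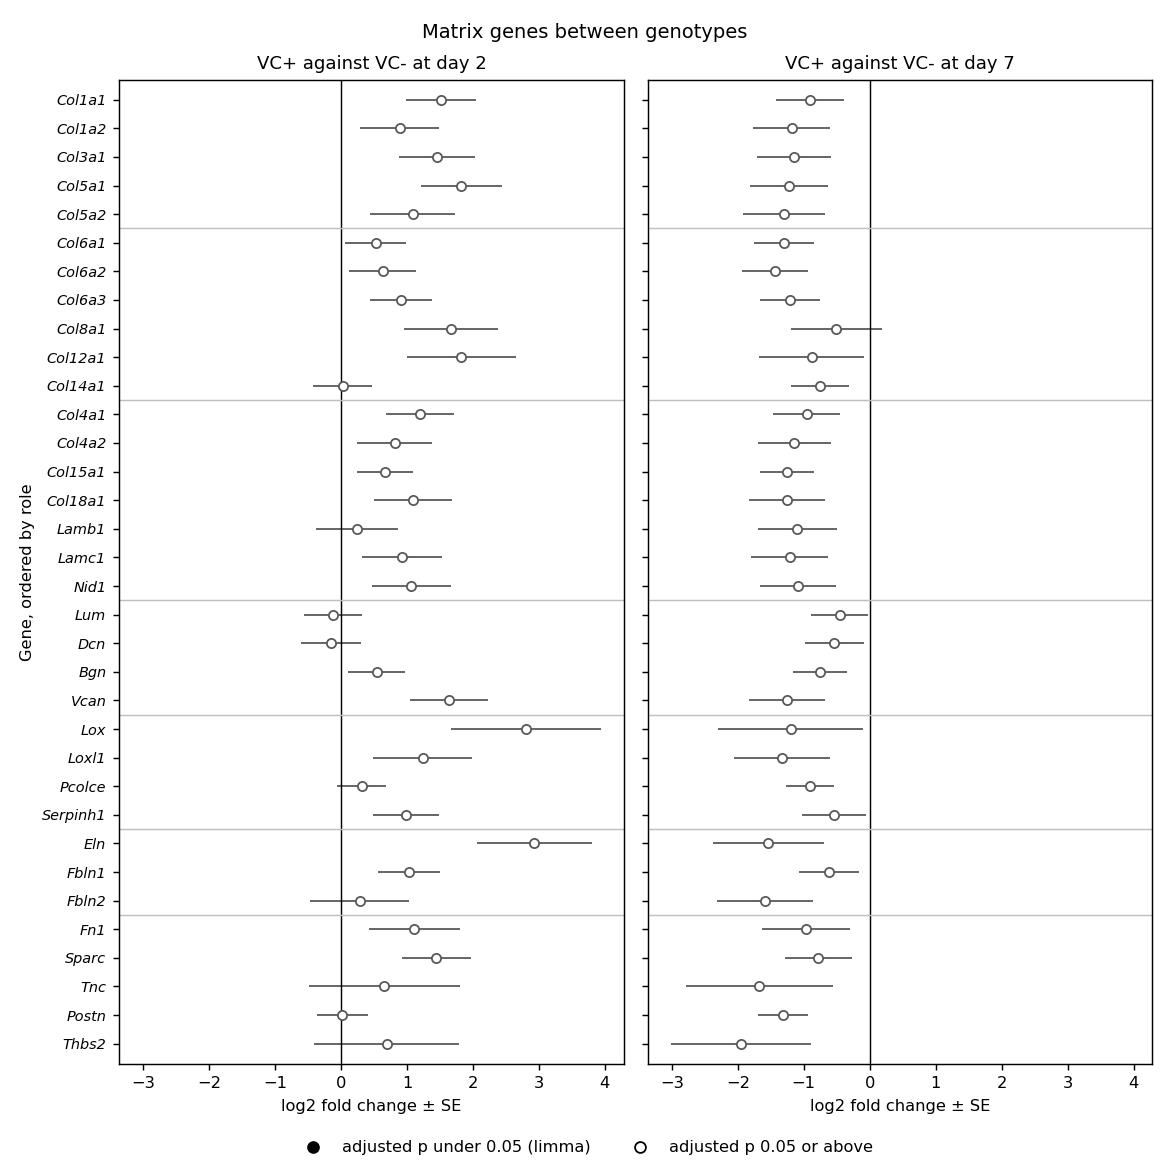
Log2 difference ± SE between VC+ and VC- mice for the 34 matrix genes, ordered by role, at day 2 (left, 5 and 3 arrays) and day 7 (right, 4 and 4 arrays). At day 2 32 points lie right of 0 (higher in VC+ mice) and at day 7 all 34 lie left of it; no point is filled, so none had an adjusted p under 0.05.

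Whether the response to DSS differed between the genotypes was tested directly as the response in VC+ mice minus that in VC- mice. At day 2 the median of the members was 1.29, with 33 higher and 1 lower. None was called (0.022% of genes tested were), and 7 had an unadjusted p under 0.05, all higher (20.6%, against 6.46% of genes in either direction), namely Col3a1, Col6a3, Col8a1, Col12a1, Vcan, Lox and Eln. The 10 smooth muscle markers had a median of 1.54 in the same contrast, with 0.86 in VC+ mice and -0.65 in VC- mice. Hoxb13 was at 7.29 to 9.67 on the VC- day 0 arrays and 2.88 to 3.08 on the VC- day 2 arrays. On the VC+ arrays it was at 2.88 to 12.42 and 3.07 to 12.42. Why the members and these markers moved in this way was not tested. At day 7 the median of the members was -0.73, with 2 higher and 32 lower, and without VC- day 7 replicate 2 it was -0.193. None was called (0.0% of genes tested) and 1, Col15a1, had an unadjusted p under 0.05 (2.94%, against 8.48%). The calls made in VC- mice and not in VC+ mice at day 7 are therefore not shown to differ between the genotypes. Before DSS the members were lower in VC+ mice by a median of -0.24 at day 0, with 8 higher and 26 lower, none called (0.011% of genes tested) and 1 with an unadjusted p under 0.05 (2.94%, against 6.6%), Col8a1 at -2.13. At day 0 the VC+ arrays lay wholly below the VC- arrays for 7 members (20.6%, against 10.6% of genes tested) and wholly above for 1 (2.94%, against 9.66%). The day 0 arrays enter both genotype responses as well, so these comparisons are not independent of each other.

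Other probe sets of the same genes were compared in sign. For 24 members 30 further probe sets had a signal above 5 on some array, and at day 7 against day 0 all 30 had the same sign as the probe set used, in VC+ mice and in VC- mice. The same held for VC+ against VC- at day 7 and for VC- day 7 against day 2. At day 2 against day 0 in VC+ mice 29 of 30 did, the exception being 1 of Nid1. For VC- day 2 against day 0, where the differences lay about 0, 19 of 30 did.

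Other genes of matrix production and reading were described from lists by role. Of all genes tested at day 7 against day 0, 1.32% were called higher and 0.429% lower in VC+ mice, and 5.53% higher and 5.06% lower in VC- mice. In VC- mice at day 7 against day 0, 4 of 13 collagen biosynthesis enzymes rose (30.8%), among them P3h3, a prolyl hydroxylase (1.43, SE 0.40), Crtap, a subunit of another prolyl hydroxylase complex (1.30, SE 0.39), and Plod3, a lysyl hydroxylase (1.10, SE 0.31), while in VC+ mice 0 of 13 were called. Of 11 other basement membrane genes, 4 rose in VC- mice (36.4%), with Lama1, a laminin α chain, at 3.54 (SE 0.50, adjusted p = 0.000556), Hspg2, perlecan, at 2.09 (SE 0.56) and Nid2, the other nidogen, at 2.03 (SE 0.60), and in VC+ mice Lama1 alone rose (2.11, SE 0.50, adjusted p = 0.0354), or 9.09% of the list. Of 7 other collagen chains tested, 0 were called in VC+ mice and 1 in VC- mice (14.3%), Col16a1, another collagen of the fibril surface (1.22, SE 0.32).

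Of 18 TGF-β pathway genes, 0 were called in VC+ mice and 6 in VC- mice, all higher (33.3%, against the 5.53% of genes tested), with Thbs1, an activator of latent TGF-β, at 2.75 (SE 0.85), Tgfbr3, betaglycan, at 2.32 (SE 0.62) and the ligand Tgfb1 at 1.83 (SE 0.52). Of 15 matrix receptors, 0 were called in VC+ mice and 4 in VC- mice, all higher (26.7%), led by Mrc2, which takes up collagen fragments (1.99, SE 0.45), and by the collagen receptor Ddr2 (1.69, SE 0.50) and the fibronectin receptor chain Itga5 (1.42, SE 0.45). Of 21 other glycoproteins and proteoglycans, 0 were called in VC+ mice, and in VC- mice 3 rose (14.3%), namely Emilin2 and Emilin1 of elastic fibers (2.93, SE 0.88, and 2.11, SE 0.54) and Mgp, an inhibitor of calcification (2.43, SE 0.59), and 2 fell (9.52%, against 5.06%), the collagen-binding proteoglycans Aspn (-1.67, SE 0.50) and Fmod (-1.05, SE 0.30). The medians over the tested genes of these 6 lists, in the order given, were 0.18, 0.54, 0.03, 0.46, 0.28 and 0.04 in VC+ mice and 0.95, 1.60, 0.78, 0.88, 0.87 and 0.71 in VC- mice, against -0.02 in VC+ mice and -0.09 in VC- mice over all genes tested. The variance filter chose those genes on the same arrays. Over all list genes on the array, tested or not, the medians were 0.16, 0.54, 0.01, 0.36, 0.28 and 0.01 in VC+ mice. In VC- mice they were 0.84, 1.60, -0.03, 0.80, 0.62 and 0.51. The median of -0.03 is that of the full list of 21 other collagen chains, of which 7 were tested. The mean of the 21, relative to each gene's mean over the arrays, was -0.12, 0.01 and -0.12 on the VC- day 0 arrays. On the VC- day 7 arrays it was -0.13, 0.72, 0.25 and 0.33. The medians over all 18194 genes were 0.01 in VC+ mice and -0.04 in VC- mice. The genes in the lists were measured on the same arrays as the members, and their part in the members' values was not tested.

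Cell type markers at day 7 against day 0 were called as follows. Of all genes tested, 1.32% were called higher and 0.429% lower in VC+ mice, and 5.53% and 5.06% in VC- mice. Of 12 markers of macrophages and monocytes, VC+ mice had 4 called higher (33.3%) and VC- mice 10 (83.3%), with Cd68, a lysosomal glycoprotein of macrophages, at 2.90 (SE 0.70) in VC+ mice and 3.32 (SE 0.70) in VC- mice. Of 3 neutrophil markers 2 rose in each genotype (66.7%), the calprotectin genes S100a8 and S100a9. Of 11 fibroblast markers 0 were called in VC+ mice and 1 in VC- mice (9.09%), Pdgfrb, the platelet-derived growth factor receptor of fibroblasts and pericytes (2.42, SE 0.57). Of 10 endothelial markers 0 were called in VC+ mice and 1 in VC- mice (10%), the endothelial receptor Tie1 (1.89, SE 0.48). Each of these shares rests on 1 gene. Of 10 smooth muscle markers, Hhip, a hedgehog-binding protein, fell in both genotypes (-3.29 in VC+ mice, -3.16 in VC- mice) and the actin-binding Synpo2 fell in VC- mice (-3.64). Of 9 colonocyte markers tested, 0 were called in VC+ mice and 1 (11.1%), the chloride exchanger Slc26a3, fell in VC- mice (-2.88, SE 0.89). No marker of these lists was called between VC+ and VC- mice at day 7 or in the response at day 7.

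In the sequence before the starts, RefSeq's promoter table (GRCm38.p6) held 28 promoters of 23 of the 34 members. Within 250 bases before the start, on either strand, the GC box GGGCGG was found in 17 of the 28 (60.7%, against 32.7% of all 32851 promoters). The CCAAT box was found in 8 (28.6%, against 33.8%), TATAAA in 5 (17.9%, against 12.4%) and the AP-1 motif TGANTCA in 1, that of Col6a1 (3.57%, against 6.75%). Some of these promoters overlap, those of the paired starts of Tnc, Fbln1 and Col6a2, and a match is a description of letters only.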

How the data were processed

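Total RNA of homogenized colonic tissue was hybridized to Affymetrix mouse expression arrays. The authors read the arrays in R 2.10.1 with the affy package and processed them by GC-RMA, so the deposited values are log2 signals, background-corrected, normalized across arrays and summarized per probe set. The table holds 45101 probe sets. Of these, 34958 carried a single gene symbol in the platform annotation and were used, 932 carried several and 9211 were unlisted or unnamed. Each gene kept its most variable probe set by interquartile range over the 22 arrays (18194 genes). Genes in the upper 50% by interquartile range (9097) were tested, following the variance filter of the study's methods. In limma 3.58.1 (R 4.3.3) a linear model with 1 mean for each of the 6 groups was moderated by empirical Bayes. Two-sided p-values were corrected by the Benjamini-Hochberg method over the 9097 genes, separately in each of 11 comparisons, at a threshold of 0.05. The pipeline was tested on simulated data.

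The members and gene lists were chosen with earlier results of these data known. Values on every array are given for the 2 members of each role with the largest day 7 difference in either genotype and for members called in a comparison with 5 or fewer calls. Col4a2, which nearly ties Col4a1, was added. From each list up to 3 called genes with the largest differences are named. Col8a1, Lum, Dcn and other members outside the rule were named after their values were seen. Alternatives were the variance filter (none, or the upper 25%), only the compared groups in the fit, array quality weights, the probe set with the highest mean, quantile normalization, an intensity trend, a replicate block, leaving out arrays with Prss2 signal or each array in turn, and Xist, Hoxb13 or the smooth muscle mean as a covariate. The number of arrays limits the precision.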

Additional observations from a re-analysis of the deposited data

Results flagged for a closer look

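In the VC+ day 2 group, replicate 1 stood below the other 4 arrays by more than a gap test for single outlying values allows for Lum (10.06, the others 11.07 to 11.25), Col6a1 (9.99, the others 10.69 to 10.90) and Bgn (9.78, the others 10.35 to 10.51). These were 3 of 102 groups of values tested, where chance alone would give about 5.1. The same array was the lowest of its group for 27 of the 34 members.

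Col8a1 moved in opposite directions at day 2. All VC+ day 2 arrays were above all VC+ day 0 arrays and all VC- day 2 arrays were below all VC- day 0 arrays. The response in VC+ mice minus that in VC- mice was 3.80, and its test in limma did not pass (adjusted p = 0.383). The median of the smooth muscle markers also went in opposite directions at day 2, as given above. In VC+ mice Col8a1 was at 7.34, 6.43 and 7.57 at day 0, 8.07, 8.71, 9.45, 9.63 and 10.08 at day 2, and 7.59, 7.85, 8.58 and 9.88 at day 7. In VC- mice it was at 8.91, 9.12 and 9.72 at day 0, 8.65, 6.98 and 6.93 at day 2, and 8.74, 10.54, 6.69 and 9.94 at day 7.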

How the results depend on the processing

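No member reversed its direction among the 23 calls of single members recomputed under the alternatives, and 197 of the 781 recomputed values were no longer past the threshold. Array quality weights called 24 members in VC+ mice at day 2 against day 0 (0 in the fit reported), 6 at day 7 against day 0 and 14 at day 7 against day 2, and 24 and 17 in VC- mice at day 7 against day 0 and against day 2. With them 1, 0 and 25 members differed between VC+ and VC- mice at days 0, 2 and 7, and 4 and 5 in the response at days 2 and 7. With only the compared groups in the fit, 1 member was called in VC+ mice at day 2 and 0 in VC- mice at day 7 against either earlier day. Without the variance filter 7 were called in VC- mice at day 7 against day 0 and 1 in VC+ mice at day 7 against day 2. Without the 3 arrays with Prss2 signal 3 were called in VC- mice at day 7 against day 0. The smooth muscle mean as a covariate left 0 calls in VC+ mice at day 7 against day 0, 2 in VC- mice, and 0 in VC+ mice at day 7 against day 2. For VC+ mice at day 7 against day 2, the Xist covariate left 1 call and the Hoxb13 covariate 0, and for VC- mice they left 4 and 5. Leaving out 1 array at a time gave 1 to 4 calls in VC+ mice and 1 to 27 in VC- mice at day 7 against day 0, 0 to 3 in VC+ mice and 2 to 30 in VC- mice at day 7 against day 2, and 0 to 15 between VC+ and VC- mice at day 7. In VC+ mice at day 7 against day 0 the 4 calls came without VC- day 7 replicate 2, and 2 came without VC- day 7 replicate 1. The median of the members kept its sign with each array left out at day 7 against day 0 (0.508 to 1.21 in VC+ mice, 1.04 to 2.15 in VC- mice) and between VC+ and VC- mice (0.806 to 1.10 at day 2, -1.67 to -0.497 at day 7) and in the response at day 7 (-1.19 to -0.193), while in VC+ mice at day 7 against day 2 it ran from -0.521 to 0.0187. The cause of these changes was not tested.

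The replicate numbers were not treated as a pairing, since the labels tie no number to a shared animal, litter or day. Among deviations from the group means, 18 of 48 same-numbered pairs had a correlation above 0.1, against 36 of 152 other pairs, and for 13 of 22 arrays the best match bore their own number. The mean correlation was 0.084 for same-numbered pairs and -0.027 for the others. Whether some same-numbered arrays share a source was not tested. With the replicate block the fit called 7 members in VC- mice at day 7 against day 0, 1 in VC+ mice and 4 in VC- mice at day 7 against day 2. In VC+ mice at day 2 against day 0 the block lowered the median of the members from 1.18 to 0.876, with 33 higher and 1 lower.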
